A study of Mus musculus with 2 samples.

Results

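Interleukins are secreted signalling proteins through which leukocytes, epithelia and stromal cells act on each other. The genes described here are all rows of the deposited count table whose name starts with Il and a digit, which takes in ligands, receptor chains, soluble inhibitors, the shared signal transducer Il6st, and the amino acid oxidase gene Il4i1, which shares the prefix only. There are 83 such rows among 23420 genes. A row was counted as measured when it had 10 or more counts in 3 or more libraries, which 49 did. Of the other 34 rows, 16 had no count in any library.

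RNA was taken from RPE-choroid, that is the retinal pigment epithelium (RPE) and the vessel-rich choroid on which it rests, of untreated mice aged 11 to 13 months. Libraries labelled AhR -/- came from 3 animals of strain B6.129-AhRtm1Bra/J, in which the gene of the aryl hydrocarbon receptor (Ahr), a ligand-activated transcription factor, carries a targeted allele in all cells of the body. Libraries labelled AhR +/+ came from 3 animals of strain C57BL6/J. Eyes were dissected free of the anterior segment and the retina, tissue of 2 eyes went into each library, and polyadenylated RNA was sequenced. The comparison asks which transcripts differ between these genotypes at matched age.

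Library totals over genes ran from 18058725 to 28692624 counts. Ahr itself averaged 42.5 ± 2.55 CPM (counts scaled to a fixed library size) in AhR -/- libraries and 22.0 ± 3.51 CPM in AhR +/+ libraries (n = 3 each, SD). Whole-gene counts do not tell whether the targeted part is present, and the difference runs against a loss of the transcript. For that reason "knockout-labelled" is used for the AhR -/- libraries, and directions rest on the label. The labels describe the animals of each group as separate but in 1 entry per group. All 9 RPE markers searched were counted, and their sum ran from 22578 to 37663 CPM in knockout-labelled and from 29437 to 39304 CPM in wild-type libraries. Cornea and conjunctiva markers, of tissue that the dissection should remove, summed to 3940.0, 16019 and 12477 CPM in the knockout-labelled animals 1, 2 and 3, against 6548, 2723 and 3208 CPM in the wild-type animals 1, 2 and 3. Of those 11 markers, 11 were tested, 0 were called, 10 were higher at an unadjusted p under 0.05, and none was at 0. Animal 1 of each group was female and animals 2 and 3 were male, read from Xist and Y-linked transcripts. Knockout-labelled animal 1 stood apart from its group. The chi-square per degree of freedom between its gene counts and those of another library was 113.9 and 93.1 for the other knockout-labelled libraries, and 63.7 to 67.3 for the wild-type libraries. Erythroid markers summed to 1075, 55.8 and 77.0 CPM in knockout-labelled animals 1, 2 and 3, and to between 4.28 and 33.6 CPM in wild-type animals, with Hba-a1 and Hba-a2 of the 6 markers at 0 and 2 markers tested.

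The interleukin families work by different routes. IL-1 family ligands bind receptor pairs that carry a Toll-like cytoplasmic domain and act through MyD88 and NF-kB, and they are held in check by a receptor antagonist, a decoy receptor and a binding protein. IL-6, IL-10 and common gamma chain cytokines signal through Janus kinases and STAT factors, and IL-17 receptors act through their own adaptor. Epithelia store IL-1 alpha, IL-18, IL-33 and the IL-36 ligands, while most other interleukins come from lymphocytes and myeloid cells.

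Measured rows spanned a wide range of levels. Averaged over the 6 libraries, 19 of the 49 stood above 10 CPM, 20 between 1 and 10 CPM, and 10 under 1 CPM. Il6st, which encodes gp130, the transducer of the IL-6 family, held 27.3% of the summed CPM of all 83 rows. Compared per kilobase of exon, Il33, an alarmin kept in cell nuclei, stood at 38.2 CPM per kilobase in knockout-labelled and 25.0 CPM per kilobase in wild-type libraries. Il10rb, the shared second chain of the IL-10 and IL-22 receptors, stood at 36.1 and 30.8 CPM per kilobase in knockout-labelled and wild-type libraries, and Il6st at 26.7 and 24.1 CPM per kilobase. Il11ra1, the IL-11 receptor, stood at 17.4 and 24.7 CPM per kilobase in the same order. Il18, whose product is matured by caspase-1, stood at 22.7 and 13.5 CPM per kilobase in knockout-labelled and wild-type libraries. By role, 31 of 38 receptor rows, 13 of 38 ligand rows and 5 of 6 inhibitor rows were measured.

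**Figure D1:**
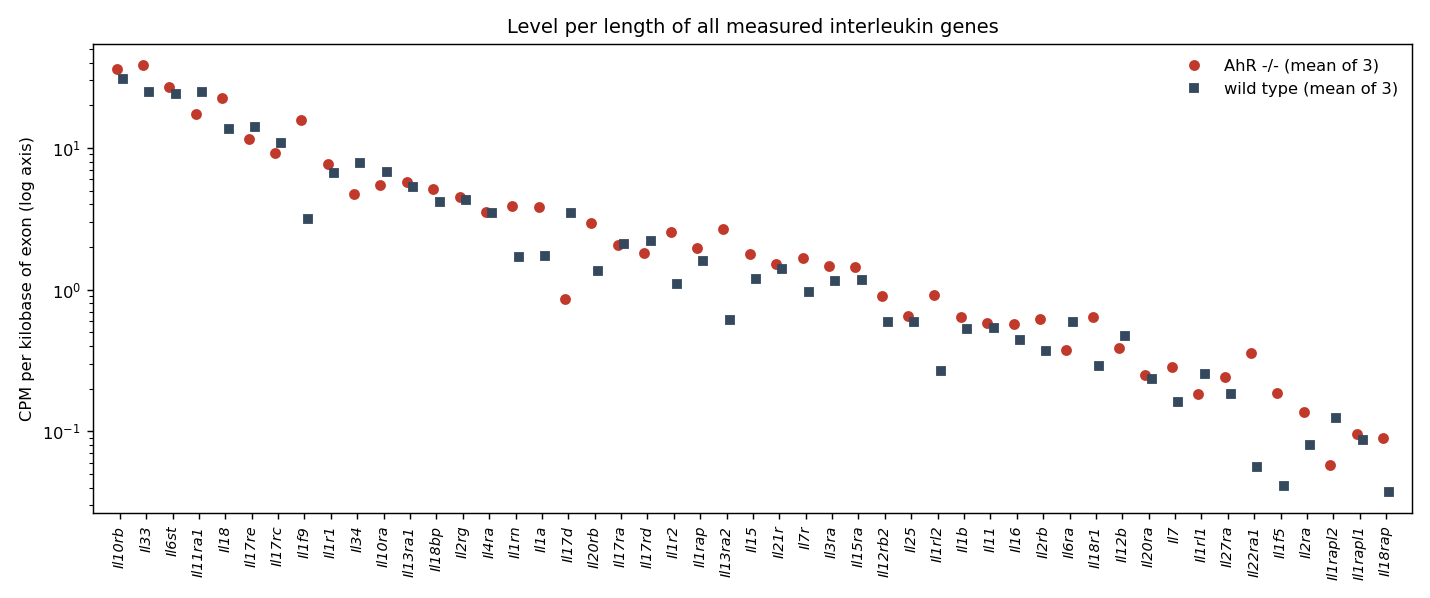
Mean CPM per kilobase of exon, on a log axis, of the 49 measured interleukin and receptor genes in knockout-labelled (red circles) and wild-type libraries (dark squares), each the mean of 3 libraries, in falling order of the mean over all 6. The leading genes Il10rb, Il33 and Il6st lie between 24.1 and 38.2 CPM per kilobase in both groups. The symbols lie far apart at Il1f9, at 15.8 against 3.14 CPM per kilobase, and at Il17d, at 0.859 against 3.47. They also do so at Il13ra2 (2.66 against 0.610), Il22ra1 (0.355 against 0.0556) and Il1f5 (0.187 against 0.0409).

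Of the 49 measured rows, 48 passed the filter of the test, and 0 of these were called by edgeR's quasi-likelihood test at a Benjamini-Hochberg adjusted p under 0.05. Among all 15796 genes tested, 8 were called, or 0.0506% (0.0253% higher and 0.0253% lower). The lowest adjusted p among the 48 was 0.128. At an unadjusted p under 0.05, 7 of the 48 had higher values and 3 had lower ones in knockout-labelled libraries, against backgrounds of 7.55% higher and 6.62% lower among all genes tested. The groups did not overlap for 8 rows higher and 3 lower, against backgrounds of 10% and 9.96%. Il22ra1 is in both counts of higher rows. It reached the measured level through knockout-labelled libraries alone, so a difference was built into its selection. Above 0 lay the log2 fold changes of 36 rows and below 0 those of 12, with a median of 0.28. Of all 15796 genes tested, 8085 lay above 0 and 7711 below, with a median of 0.01.

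Other tools called some of these rows. DESeq2 called 4 (Il1f9, Il1rn and Il1rl2 higher, Il11ra1 lower), against 3.0% of the genes it gave an adjusted p (1.68% higher, 1.32% lower), and the edgeR exact test called 2 (Il1f9 and Il1rn, both higher), against 2.29% (1.48% higher, 0.81% lower). Limma-voom called 0. In the authors' deposited table, Il1f9 and Il1rn are the 2 rows at an FDR under 0.05 among the 62 listed, against 2.37% of all genes there. Without knockout-labelled animal 1 the quasi-likelihood test called 5 rows (Il1f9, Il1rl2, Il18 and Il20rb higher, Il11ra1 lower), against 4.95% of all genes (2.55% higher, 2.4% lower), and without any other library it called 0. In bulk tissue, fewer cells of a type and less RNA per cell cannot be told apart.

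**Figure D2:**
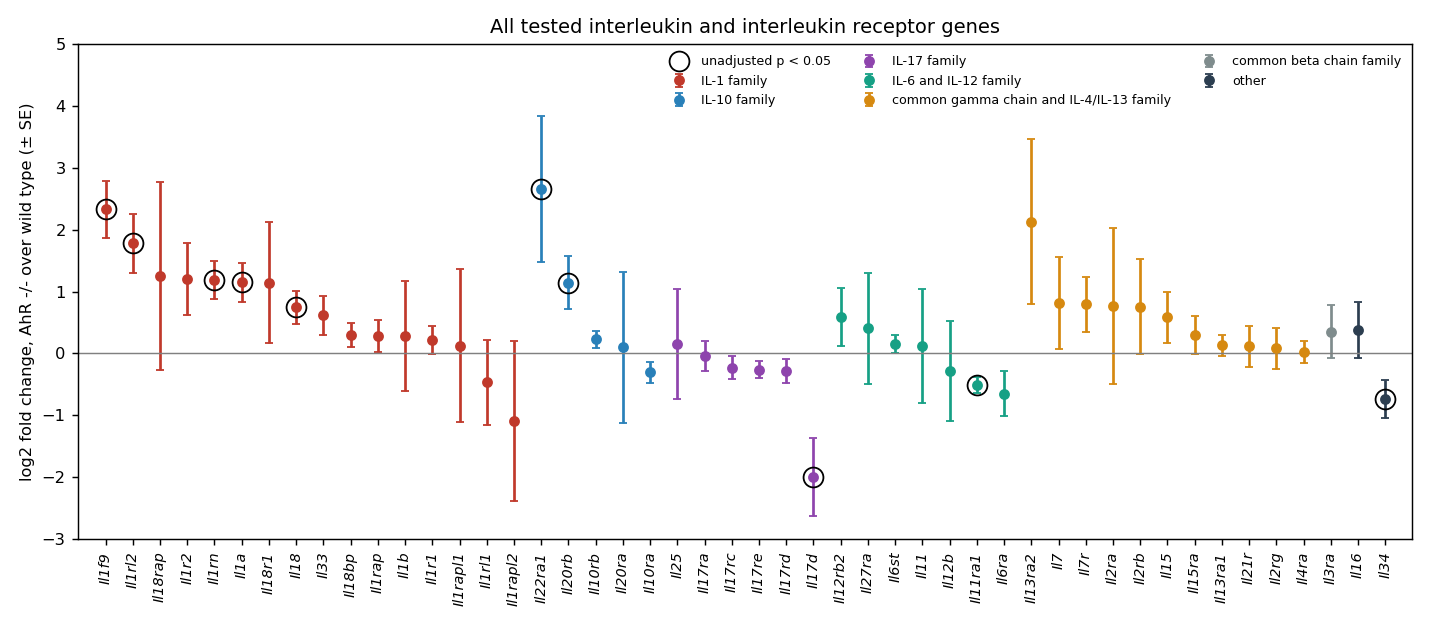
Log2 fold change of knockout-labelled over wild-type libraries, with its SE, for the 48 tested interleukin and receptor genes, grouped and coloured by family, with black rings around those at an unadjusted p under 0.05. Of the 16 IL-1 family members 14 lie above 0, all 11 common gamma chain and IL-4/IL-13 family members lie above 0, and 5 of 6 IL-17 family members lie below 0.

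Values of the IL-1 family lay mostly above the wild type in the knockout-labelled libraries. Of 16 members tested, 14 had a log2 fold change above 0, 5 had an unadjusted p under 0.05 and 0 were called, with a family median of 0.68. Above every wild-type library lay 7 of the 16 in knockout-labelled animal 1 and 10 of the 16 in each of animals 2 and 3, where the cornea and conjunctiva sums were highest. Of all genes tested, 28.2%, 34.8% and 32.3% lay above every wild-type library in knockout-labelled animals 1, 2 and 3. Most members sit in tight clusters of the genome. In GRCm38, Il1f8, Il1f9, Il1f6, Il1f5, Il1f10 and Il1rn follow each other on the plus strand of chromosome 2 between 24153172 and 24351491, with Il1a (129299609 to 129310186) and Il1b (129364569 to 129371164) farther along on its minus strand. The receptor genes Il1r2, Il1r1, Il1rl2, Il1rl1, Il18r1 and Il18rap lie on the plus strand of chromosome 1 between 40084692 and 40551707. No interleukin row lies on chromosome 12, where Ahr lies.

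Il1f9 encodes IL-36 gamma, an IL-1 family ligand of skin and other surface epithelia. It stood at 14.2, 32.5 and 31.6 CPM in the knockout-labelled animals 1 to 3, against 7.52, 2.19 and 5.84 CPM in the wild-type animals 1 to 3. Every knockout-labelled library lay above every wild-type library, and animal 1 was the lowest of its group. The group means were 26.1 ± 10.3 and 5.18 ± 2.72 CPM (SD, n = 3 each), and the log2 fold change was 2.33 (SE 0.46, edgeR adjusted p = 0.128). Fitted with a covariate for cornea and conjunctiva (the average log2 CPM of those markers, "cornea covariate" from here on), the log2 fold change was 1.36 (adjusted p = 0.252). Between the females (1 library per group, the cornea and conjunctiva sum being lower in the knockout-labelled one) the log2 ratio of Il1f9 was 0.91, and between the males (2 libraries per group) it was 2.97. Such log2 ratios are of mean CPM + 0.1 throughout, split by sex, and have no test. The female pair holds knockout-labelled animal 1, which stood apart from its group. Between the males, the cornea and conjunctiva sums were higher in the knockout-labelled libraries. In these ratios sex therefore cannot be told apart from that library or from the cornea and conjunctiva content. The authors' deposited table gives Il1f9 an FDR of 2.28e-06.

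Il1a, encoding IL-1 alpha, an alarmin of epithelial and other cells, stood at 6.62, 7.46 and 8.46 CPM in the knockout-labelled animals, against 3.08, 4.34 and 2.73 CPM in the wild-type animals. The groups did not overlap, and the spread within each was small. A log2 fold change of 1.15 was fitted (SE 0.32, edgeR adjusted p = 0.185), near the log2 ratios of 1.08 between the females and 1.15 between the males. It was 1.17 with the cornea covariate (adjusted p = 0.557). For Il18 and Il33, described next, the log2 ratios had opposite signs between the females and between the males. The cornea and conjunctiva sums also differed in opposite directions there, so sex cannot be told apart from them.

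Il18 stood at 15.2, 27.5 and 27.3 CPM in the knockout-labelled animals, against 17.1, 11.6 and 13.1 CPM in the wild-type animals. Knockout-labelled animals 2 and 3 lay above all wild-type libraries, but animal 1 lay among them. Its log2 fold change, 0.74 (SE 0.26, edgeR adjusted p = 0.265), became 0.15 with the cornea covariate (adjusted p = 0.916), and the log2 ratio was -0.16 between the females and 1.15 between the males. Il33 stood at 96.3, 123 and 112 CPM in the knockout-labelled animals, against 114, 61.2 and 41.0 CPM in the wild-type animals. Wild-type animal 1 lay within the range of the knockout-labelled group. The fitted log2 fold change was 0.62 (SE 0.31, edgeR adjusted p = 0.407), and the log2 ratios were -0.24 between the females and 1.20 between the males. With the cornea covariate the log2 fold change of Il33 was 0.19 (adjusted p = 0.915), and with a library left out it was between 0.31 and 1.11. Il1b, the secreted IL-1 of myeloid cells, was low in both groups, at 1.23 ± 0.144 and 1.01 ± 1.05 CPM in knockout-labelled and wild-type libraries (n = 3 each, SD), and its highest value, 2.22 CPM, was in wild-type animal 1.

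Il1f6 and Il1f8, which encode the other IL-36 agonists, were below the measured level. Il1f6 had 0, 28 and 13 counts in knockout-labelled animals and 0 in each wild-type library. Il1f8 had 0, 0 and 13 counts in knockout-labelled animals, against 0, 4 and 0 in wild-type animals. Il1f6 counts were therefore in the pair of libraries with the highest cornea and conjunctiva sums, and Il1f10 had 0 counts in all 6.

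Of the inhibitors of the family, 3 were tested and 0 called, and Il1f5 was not tested. Il1rn, encoding the IL-1 receptor antagonist, stood at 19.1, 23.8 and 21.4 CPM in the knockout-labelled animals, against 14.7, 6.69 and 6.91 CPM in the wild-type animals. The groups did not overlap, and wild-type animal 1 lay nearest to the other group. Its log2 fold change was 1.18 (SE 0.31, edgeR adjusted p = 0.185), it was 0.75 with the cornea covariate (adjusted p = 0.557), and the log2 ratios were 0.37 between the females and 1.72 between the males. Il1r2, a decoy receptor that binds IL-1 without signalling and is found on neutrophils, stood at 3.22, 8.17 and 3.14 CPM in the knockout-labelled animals, against 3.01, 0.909 and 2.35 CPM in the wild-type animals. Knockout-labelled animals 1 and 3 lay only slightly above wild-type animal 1, so the lack of overlap rests on small gaps (log2 fold change 1.21, SE 0.58, edgeR adjusted p = 0.385). With the cornea covariate the log2 fold change of Il1r2 was 0.40 (adjusted p = 0.920), and with a library left out it was between 0.60 and 1.56.

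The sum of 12 neutrophil markers ran from 84.98 to 154 CPM in knockout-labelled and from 25.9 to 30.2 CPM in wild-type libraries. Of these genes 7 were tested, 3 had an unadjusted p under 0.05 and Ltf was called higher, and the defining markers Ngp, Mpo and Elane were at 0 in all libraries. Ltf, encoding lactoferrin, which secretory epithelia also make, held 87.9, 46.0 and 62.2 CPM of the sum in knockout-labelled animals 1, 2 and 3, against 6.62, 1.82 and 3.25 CPM in wild-type animals 1, 2 and 3. The neutrophil sum was highest in knockout-labelled animal 1, and Il1r2 in animal 2. Their part in the values of Il1r2 was not tested. Il18bp, which neutralises IL-18, stood at 15.4 ± 0.517 CPM in knockout-labelled and 12.6 ± 1.83 CPM in wild-type libraries (n = 3 each, SD), without overlap. Exons of Il18bp overlap those of Numa1 on the other strand, and the strand setting of the counting is not given in the sources used here. Il1f5, the IL-36 receptor antagonist, met the measured level at its limit with 0, 24 and 30 counts in knockout-labelled animals, against 0, 5 and 10 in wild-type animals, and did not pass the filter of the test. Just outside that level was Il12rb1, a chain of the IL-12 and IL-23 receptors, with 0, 11 and 15 counts in knockout-labelled animals, against 4, 4 and 7 in wild-type animals.

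Among the receptors, Il1rl2, the receptor of the IL-36 ligands, stood at 3.18, 9.16 and 6.40 CPM in the knockout-labelled animals, against 2.33, 1.24 and 1.87 CPM in the wild-type animals. The groups did not overlap, with knockout-labelled animal 1 nearest to the wild type. For Il1rl2 the log2 fold change was 1.78 (SE 0.48, edgeR adjusted p = 0.185), and 0.82 with the cornea covariate (adjusted p = 0.748). Il1f9 and Il1rl2, a ligand and its receptor, both had their lowest knockout-labelled value in animal 1. So did Il1a, Il18, Il33, Il1rn, Il1r1, Il1rap and Il20rb, while Il1b, Il1r2 and Il18bp did not. The log2 ratio of Il1rl2 was 0.43 between the females and 2.25 between the males.

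The IL-1 receptor Il1r1 and its co-receptor Il1rap were among the more abundant chains. Il1r1 stood at 36.3, 54.3 and 55.4 CPM in the knockout-labelled animals, against 54.6, 39.9 and 31.5 CPM in the wild-type animals, and the groups overlapped. Il1rap stood at 13.7, 27.8 and 25.0 CPM in the knockout-labelled animals, against 18.3, 19.6 and 16.6 CPM in the wild-type animals. Knockout-labelled animal 1 was the lowest library for Il1rap, and the log2 fold changes of both genes, 0.21 and 0.29, changed sign with the cornea covariate (-0.24 and -0.20). The IL-33 receptor Il1rl1, known from mast cells and type 2 lymphocytes, was at 1.27 ± 0.738 CPM in knockout-labelled and 1.75 ± 0.691 CPM in wild-type libraries (n = 3 each, SD). Il18r1 ranged from 0.796 to 6.80 CPM in knockout-labelled and from 0.242 to 2.93 CPM in wild-type libraries. The synaptic relatives Il1rapl1 and Il1rapl2, and the IL-18 co-receptor Il18rap, averaged under 1 CPM in each group.

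**Figure D3:**
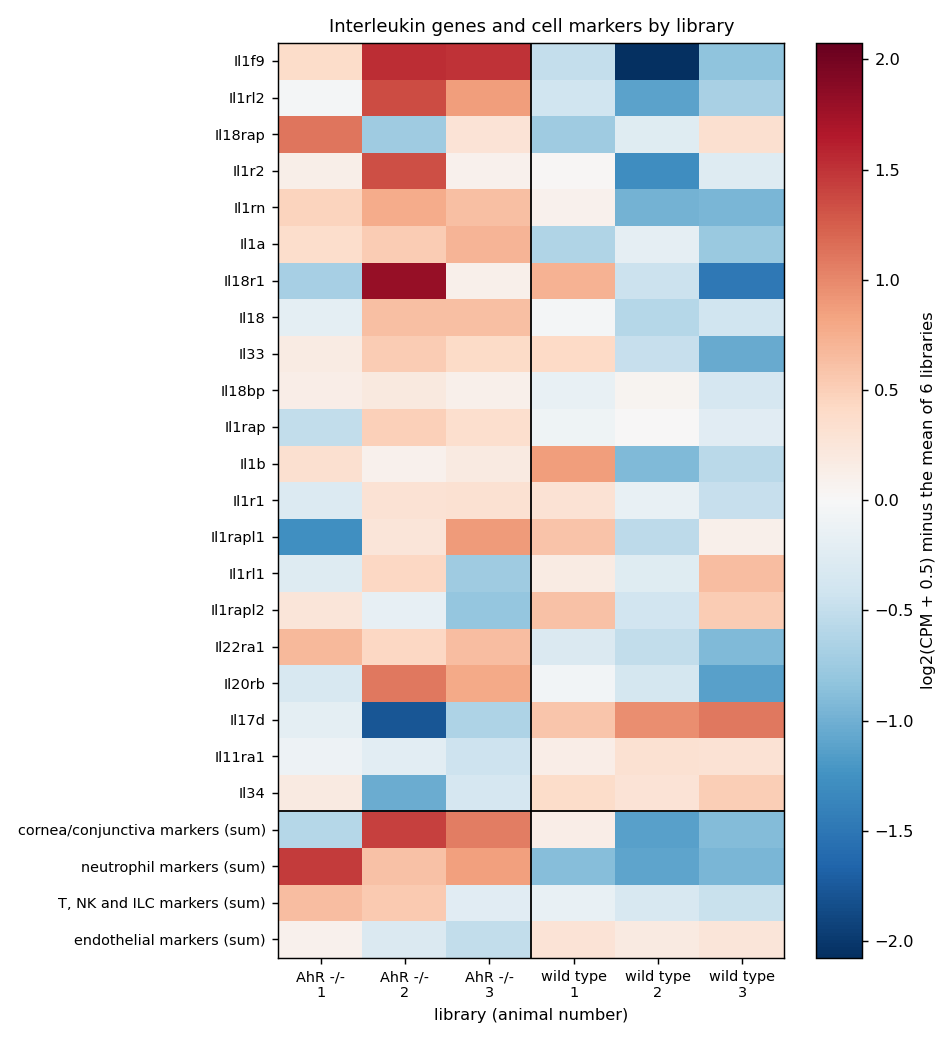
Log2(CPM + 0.5) minus the mean of the 6 libraries (colour) for the 16 tested IL-1 family genes and the other 5 interleukin genes at an unadjusted p under 0.05, with summed marker lists under the line. Il1a, Il1f9, Il1rl2, Il1rn, Il18, Il1rap and Il20rb are highest in knockout-labelled animals 2 and 3. Those libraries have cornea and conjunctiva sums of 16019 and 12477 CPM. Of these genes, Il1a, Il1f9, Il1rl2 and Il1rn are above every wild-type library in all 3 knockout-labelled animals. For Il18 and Il20rb, knockout-labelled animal 1 lies inside the wild-type range, and for Il1rap it is the lowest library.

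The IL-10 family includes receptors of IL-20 and IL-22, which act on epithelia, and 0 of its 5 tested members were called. Il20rb, a chain shared by the receptors of IL-19, IL-20 and IL-24, stood at 6.11, 17.3 and 14.0 CPM in the knockout-labelled animals, against 7.59, 6.03 and 3.32 CPM in the wild-type animals. Knockout-labelled animal 1 lay inside the wild-type range. Fitted, the log2 fold change was 1.14 (SE 0.43, edgeR adjusted p = 0.288) and 0.25 with the cornea covariate (adjusted p = 0.929). The log2 ratio was -0.31 between the females and 1.72 between the males.

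Il22ra1, the specific chain of the IL-22 receptor, had 24, 14 and 24 counts in knockout-labelled animals, against 7, 4 and 0 in wild-type animals. It was the 1 measured row that reached the measured level through knockout-labelled libraries alone, so a difference was built into its selection. Its level was 0.913 ± 0.127 CPM in knockout-labelled and 0.143 ± 0.133 CPM in wild-type libraries (n = 3 each, SD), and its log2 fold change was 2.65 (SE 1.18, edgeR adjusted p = 0.353). With the cornea covariate the log2 fold change of Il22ra1 was 2.47 (edgeR adjusted p = 0.731). The ligand Il22, which T cells produce under control of the aryl hydrocarbon receptor, had 9 counts in wild-type animal 3 and 0 in the other 5 libraries. A count of 0 allows up to 3 counts, or 0.104 to 0.165 CPM depending on the library.

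Il10ra, the chain that gives the IL-10 receptor its specificity on leukocytes, stood at 19.0 ± 2.47 CPM in knockout-labelled and 23.6 ± 2.35 CPM in wild-type libraries (n = 3 each, SD). Il10rb stood at 137 ± 18.1 and 117 ± 12.9 CPM in knockout-labelled and wild-type libraries, and both genes overlapped between groups. Exons of Il10rb overlap those of Gm21970 on the same strand. Il20ra, the partner of Il20rb, was at 0.611 ± 0.534 CPM in knockout-labelled and 0.566 ± 0.229 CPM in wild-type libraries (n = 3 each, SD). Il10 itself had 14 counts in knockout-labelled animal 3, 3 counts in wild-type animal 1 and 0 elsewhere. Il19, Il20, Il24 and the IL-22 binding protein gene Il22ra2 had 0 counts in all 6 libraries.

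In the IL-17 family 4 of 5 receptor rows and the ligand rows Il17d and Il25 were measured, and 0 of these 6 were called. Il17d stood at 1.80, 0.274 and 1.21 CPM in the knockout-labelled animals, against 3.46, 4.67 and 5.15 CPM in the wild-type animals. Every knockout-labelled library lay below every wild-type library. The log2 fold change was -1.99 (SE 0.63, edgeR adjusted p = 0.232), with log2 ratios of -0.90 between the females and -2.57 between the males, and it was -1.32 with the cornea covariate (adjusted p = 0.709). In counts, these were 43, 5 and 30 in knockout-labelled animals, against 92, 113 and 149 in wild-type animals.

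Receptor chains of this family were more abundant and closer between groups. Il17re, the chain that pairs with Il17ra to bind IL-17C on epithelia, stood at 78.3, 64.5 and 61.9 CPM in the knockout-labelled animals, against 81.6, 90.4 and 74.0 CPM in the wild-type animals, and the fold change on the log2 scale was -0.27 (SE 0.14, edgeR adjusted p = 0.414). Only knockout-labelled animal 1 reached the wild-type range. Il17ra, the shared chain, stood at 17.7 ± 5.94 CPM in knockout-labelled and 18.2 ± 1.44 CPM in wild-type libraries, and Il17rc, which pairs with it for IL-17A and IL-17F, at 24.6 ± 2.04 and 28.9 ± 5.83 CPM (SD, n = 3 each). Il17rd stood at 19.9 ± 4.30 CPM in knockout-labelled and 24.3 ± 1.02 CPM in wild-type libraries (n = 3 each, SD). The T cell ligands Il17a and Il17f had 0 counts in all 6 libraries, and Il17c, an epithelial ligand, had 9, 5 and 0 counts in knockout-labelled animals and 0 in each wild-type animal. Il25 averaged under 1 CPM in each group.

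In the IL-6 and IL-12 family, Il11ra1 was the member with the lowest p. It stood at 85.6, 79.6 and 68.2 CPM in the knockout-labelled animals, against 102, 115 and 114 CPM in the wild-type animals. The groups did not overlap, and the log2 fold change was -0.51 (SE 0.13, edgeR adjusted p = 0.172). After a correction for transcript GC content it was -0.29 (adjusted p = 0.368), and with the cornea covariate it was -0.36 (edgeR adjusted p = 0.584). Exons of Il11ra1 overlap those of Ccl27a on the other strand, and the near-identical gene Il11ra2 had 0 counts, so this count is uncertain. Endothelial markers summed to 934, 714 and 616 CPM in the knockout-labelled animals, against 1063, 1000.5 and 1043 CPM in the wild-type animals, and 6 of the 10, all tested and none at 0, were lower at an unadjusted p under 0.05. Fibroblast markers summed to 8190, 8513 and 7915 CPM in the knockout-labelled animals, against 9417, 9138 and 11104 CPM in the wild-type animals. Of those 6 markers, all tested and none at 0, 2 were lower at an unadjusted p under 0.05. The part of either cell type in the values of Il11ra1 was not tested. Il11, the ligand, was at 1.21 ± 0.513 CPM in knockout-labelled and 1.12 ± 1.18 CPM in wild-type libraries (n = 3 each, SD).

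Il6st stood at 336, 277 and 277 CPM in the knockout-labelled animals, against 276, 279 and 246 CPM in the wild-type animals. Knockout-labelled animal 1 was the highest library and the other 5 lay close together (log2 fold change 0.15, SE 0.14, edgeR adjusted p = 0.669). Il6ra, which makes cells responsive to IL-6, stood at 2.64, 2.69 and 4.35 CPM in the knockout-labelled animals, against 5.30, 4.34 and 5.63 CPM in the wild-type animals. The groups touched at a single pair of libraries (log2 fold change -0.66, SE 0.36, edgeR adjusted p = 0.452). Il6 itself had 5 counts in knockout-labelled animal 2 and 0 in the other 5 libraries. Il12rb2, an IL-12 receptor chain, was at 3.40 ± 1.04 CPM in knockout-labelled and 2.26 ± 0.647 CPM in wild-type libraries (n = 3 each, SD). Il27ra and Il12b averaged under 1 CPM in each group, and Il23a, a subunit of IL-23, had 21, 18 and 0 counts in knockout-labelled animals, against 7, 0 and 0 in wild-type animals.

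All 11 tested members of the common gamma chain and IL-4/IL-13 family had a log2 fold change above 0, from 0.03 to 2.13, and 0 of them had an unadjusted p under 0.05. Il13ra1, Il13ra2, Il21r, Il2ra, Il2rg and Il4ra did not keep that sign in every alternative. Il4ra, shared by the IL-4 and IL-13 receptors, stood at 21.3 ± 2.14 CPM in knockout-labelled and 20.9 ± 3.16 CPM in wild-type libraries, and Il13ra1, its partner in the receptor that binds both cytokines, at 21.4 ± 2.80 and 19.5 ± 1.67 CPM (SD, n = 3 each). Il2rg, the common gamma chain, stood at 16.5, 6.53 and 9.38 CPM in the knockout-labelled animals, against 10.7, 11.5 and 8.50 CPM in the wild-type animals. Its signs differed among the alternatives, and knockout-labelled animal 1 held the highest value. Exons of Il2rg overlap those of the predicted gene Gm20489 on the same strand.

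The largest fold change of this family rested on 1 library. Il13ra2, a decoy receptor for IL-13, stood at 16.8, 0.219 and 1.17 CPM in the knockout-labelled animals, against 2.26, 1.82 and 0.104 CPM in the wild-type animals. Its log2 fold change, 2.13 (SE 1.34, edgeR adjusted p = 0.508), became -0.98 without knockout-labelled animal 1. Il15, which sustains natural killer and memory T cells, stood at 3.73, 4.61 and 3.79 CPM in the knockout-labelled animals, against 2.97, 3.35 and 1.76 CPM in the wild-type animals, without overlap (log2 fold change 0.59, SE 0.41, edgeR adjusted p = 0.561). Its receptor chain Il15ra stood at 6.39 ± 1.23 CPM in knockout-labelled and 5.17 ± 1.10 CPM in wild-type libraries (n = 3 each, SD).

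Il7r, the IL-7 receptor of lymphocytes, stood at 11.1, 8.39 and 3.75 CPM in the knockout-labelled animals, against 4.59, 5.99 and 2.80 CPM in the wild-type animals. Knockout-labelled animals 1 and 2 lay above all wild-type libraries, and animal 3 lay among them (log2 fold change 0.79, SE 0.44, edgeR adjusted p = 0.454). Il7, its ligand, stood at 1.62 ± 0.596 and 0.918 ± 0.477 CPM, Il2rb at 2.68 ± 2.01 and 1.58 ± 0.595 CPM, and Il21r at 5.01 ± 1.16 and 4.63 ± 0.631 CPM in knockout-labelled and wild-type libraries (n = 3 each, SD). Markers of T cells, natural killer cells and innate lymphoid cells summed to 37.2, 34.9 and 20.01 CPM in the knockout-labelled animals, against 21.3, 18.7 and 17.2 CPM in the wild-type animals. Of 11 such markers with a row, 9 were tested, 2 were higher at an unadjusted p under 0.05, 0 were called and none was at 0. Il2ra averaged under 1 CPM in each group. The part of these cells in the receptor values was not tested. The lymphocyte ligands Il2, Il9, Il13 and Il21 had 0 counts in all 6 libraries, and Il4 had 11 counts in knockout-labelled animal 1 alone.

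In the common beta chain family, Il3ra stood at 4.33 ± 2.18 CPM in knockout-labelled and 3.39 ± 0.488 CPM in wild-type libraries (n = 3 each, SD), with the highest value, 6.83 CPM, in knockout-labelled animal 1. The ligands Il3, with 0 counts, and Il5, with 6, 6 and 0 counts in knockout-labelled animals and 0 in each wild-type animal, were below the measured level.

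Il34, another ligand of the macrophage receptor Csf1r, stood at 13.2, 5.38 and 8.98 CPM in the knockout-labelled animals, against 15.2, 14.1 and 16.6 CPM in the wild-type animals. The groups did not overlap. Its exons overlap antisense transcripts on the other strand. Its log2 fold change was -0.73 (SE 0.31, edgeR adjusted p = 0.332), -0.20 as a log2 ratio between the females and -1.09 between the males. With the cornea covariate the log2 fold change of Il34 was -0.38 (edgeR adjusted p = 0.834). Csf1r stood at 295, 181 and 190.2 CPM in the knockout-labelled animals, against 262, 294 and 252 CPM in the wild-type animals. For both genes knockout-labelled animals 2 and 3 were the lowest libraries. Il16, a chemoattractant of CD4+ cells, stood at 4.49 ± 2.24 CPM in knockout-labelled and 3.47 ± 1.06 CPM in wild-type libraries (n = 3 each, SD), and its exons overlap those of Stard5 on the other strand.

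**Figure D4:**
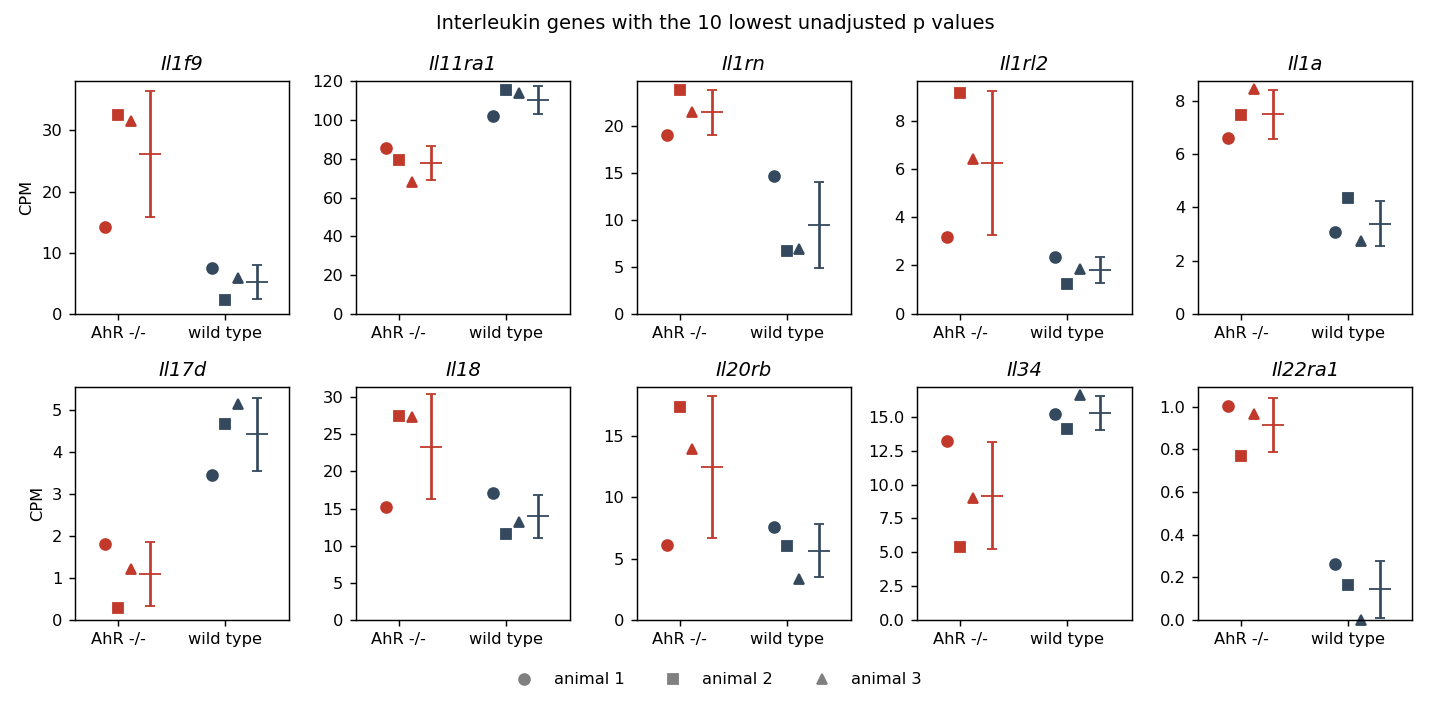
CPM in each library of the 10 interleukin and receptor genes with the lowest unadjusted p, knockout-labelled on the left (red) and wild type on the right (dark), with the symbol giving the animal number and the bar the mean and SD of 3 libraries. Il1f9 has 14.2 to 32.5 against 2.19 to 7.52 CPM and Il17d 0.274 to 1.80 against 3.46 to 5.15 CPM, while knockout-labelled animal 1 overlaps the wild type for Il18 and Il20rb.

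Start regions of these 10 genes were searched for the core letters bound by the aryl hydrocarbon receptor with its partner, GCGTG on either strand, because that factor carries the targeted allele. The search used RefSeq windows of GRCm38.p6, from 250 bases before to 50 after each annotated start, which were matched for 65 of the 83 rows (80 windows) and 9 of the 10 genes (12 windows). The core was in 26.2% of the windows of interleukin rows, against 32.4% of all 32851 windows, and in 2 of the 12 windows. AP-1 letters (TGANTCA, which read alike on both strands) were in 17.5% and 7.81% of interleukin and all windows, and STAT letters (TTCNNNGAA, also alike on both strands) in 12.5% and 8.3%. The AP-1 and STAT patterns were chosen after the values were seen, and matches are descriptions of the letters, not of binding. The stretches with a match before the start are shown, with the matched letters in capitals. In Il1f9 they are STAT letters, in Il1a and Il22ra1 AP-1 letters, and in Il17d the reverse complement of the core. In Il1rn an AP-1 match runs into the reverse complement of the core, and they share letters. The window of Il1a uses an annotated start inside the gene span given above (129299609 to 129310186), so the stretch shown also lies inside that span. The first 30 bases after the start were found in the opening sequence of a GENCODE transcript for 55 of the 80 windows.
Il1f9, plus strand, chr2:24186328-24186376: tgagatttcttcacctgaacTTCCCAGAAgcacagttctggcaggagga
Il1rn, plus strand, chr2:24336699-24336748: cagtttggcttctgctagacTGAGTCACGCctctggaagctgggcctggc
Il1a, minus strand, chr2:129309973-129310004: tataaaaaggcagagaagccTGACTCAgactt
Il22ra1, plus strand, chr4:135727917-135727963: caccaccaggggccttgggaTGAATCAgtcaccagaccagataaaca
Il17d, plus strand, chr14:57524797-57524828: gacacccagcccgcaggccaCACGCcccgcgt

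Genes around the interleukins were taken from 8 pathway lists, and 0 of their members were called by edgeR's quasi-likelihood test. The lists were chosen with earlier results of these data known. In the order described below, they held 20, 9, 19, 10, 10, 10, 9 and 10 genes tested by edgeR. DESeq2 called 9 higher (Arg1, Chi3l3, Cxcl5, Lcn2, Nfkbiz, Pycard, S100a8, S100a9 and Stat3) and 2 lower (Clcf1 and Saa3). It called 3.0% of all genes it gave an adjusted p (1.68% higher, 1.32% lower). The edgeR exact test called 8 higher and 1 lower, all among those 11, against 2.29% of all genes (1.48% higher, 0.81% lower). Limma-voom called Arg1, against 13 of all 15796 genes. Without knockout-labelled animal 1 the quasi-likelihood test called 3 higher and 3 lower, against 4.95% of all genes (2.55% higher, 2.4% lower). Among 20 genes of IL-1 and Toll-like receptor signalling, 1 was higher and 0 lower at an unadjusted p under 0.05, with a median log2 fold change of 0.09. Nfkbiz, encoding an NF-kB cofactor that IL-1 and IL-17 induce, stood at 24.7, 38.3 and 28.7 CPM in the knockout-labelled animals, against 21.3, 13.8 and 15.8 CPM in the wild-type animals (log2 fold change 0.85, edgeR adjusted p = 0.185). Its groups did not overlap, and the log2 fold change was 0.44 with the cornea covariate (adjusted p = 0.667). The adaptor Myd88 stood at 20.3 ± 3.11 CPM in knockout-labelled and 15.9 ± 0.645 CPM in wild-type libraries, and the kinase Irak4 at 36.0 ± 1.29 and 28.8 ± 5.24 CPM (SD, n = 3 each).

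Of 9 tested genes that mature or release IL-1 family cytokines, all 9 had a log2 fold change above 0 (median 0.45) and 2 an unadjusted p under 0.05. Pycard, the inflammasome adaptor, stood at 30.5, 43.6 and 48.5 CPM in the knockout-labelled animals, against 29.6, 19.9 and 17.99 CPM in the wild-type animals (log2 fold change 0.86, edgeR adjusted p = 0.185). For Pycard it was 0.39 with the cornea covariate (adjusted p = 0.693), and the log2 ratios were 0.045 between the females and 1.28 between the males. Casp4, the inflammatory caspase-11 gene, stood at 8.92, 4.50 and 3.58 CPM in the knockout-labelled animals, against 2.44, 1.78 and 1.69 CPM in the wild-type animals (log2 fold change 1.52, edgeR adjusted p = 0.215). Neither gene overlapped between the groups. Aim2, a DNA sensor, stood at 6.95 ± 1.44 CPM in knockout-labelled and 5.07 ± 1.39 CPM in wild-type libraries (n = 3 each, SD).

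Among 19 Janus kinase, STAT and suppressor genes, 1 was higher and 1 lower at an unadjusted p under 0.05 (median -0.06). Stat3, which carries IL-6, IL-10 and IL-22 signals, stood at 185, 183 and 189.9 CPM in the knockout-labelled animals, against 141, 130.1 and 116 CPM in the wild-type animals (log2 fold change 0.53, SE 0.12, edgeR adjusted p = 0.161). Those values were tight within the knockout-labelled group and did not overlap the wild type. Socs1, a feedback inhibitor of this pathway, stood at 2.68, 0.549 and 1.05 CPM in the knockout-labelled animals, against 3.91, 5.58 and 3.59 CPM in the wild-type animals (log2 fold change -1.60, edgeR adjusted p = 0.292). Jak2 stood at 56.4 ± 4.62 CPM in knockout-labelled and 47.4 ± 2.504 CPM in wild-type libraries (n = 3 each, SD).

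Of 10 partners of gp130, 1 was higher and 1 lower at an unadjusted p under 0.05 (median 0.08). Clcf1, a gp130 ligand of the ciliary neurotrophic factor type, stood at 2.30, 1.48 and 4.23 CPM in the knockout-labelled animals, against 10.7, 6.90 and 7.94 CPM in the wild-type animals (log2 fold change -1.66, SE 0.42, edgeR adjusted p = 0.178). Ebi3, the shared subunit of IL-27 and IL-35, stood at 3.35, 5.65 and 3.79 CPM in the knockout-labelled animals, against 1.99, 2.19 and 1.66 CPM in the wild-type animals (log2 fold change 1.13, edgeR adjusted p = 0.292). Neither gene overlapped between groups. The oncostatin M receptor Osmr stood at 198, 122 and 125 CPM in the knockout-labelled animals, against 115, 114 and 103 CPM in the wild-type animals. Among 10 tested partners outside the gp130 group 0 had an unadjusted p under 0.05. Crlf2, of the thymic stromal lymphopoietin receptor, stood at 13.0 ± 2.05 CPM in knockout-labelled and 17.2 ± 4.56 CPM in wild-type libraries, and Csf2rb2, an IL-3 receptor chain of mice, at 11.7 ± 2.33 and 8.40 ± 3.64 CPM (SD, n = 3 each).

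Genes known to respond to interleukins had mixed values. Of 10 tested acute-phase and IL-6 targets, 1 was higher and 1 lower at an unadjusted p under 0.05 (median 0.06). Steap4, an IL-6 and TNF-responsive metalloreductase, stood at 66.0 ± 5.41 CPM in knockout-labelled and 47.9 ± 1.86 CPM in wild-type libraries (n = 3 each, SD), and Saa3, an acute-phase apolipoprotein, stood at 0, 1.32 and 0.362 CPM in the knockout-labelled animals, against 3.27, 5.78 and 4.25 CPM in the wild-type animals. Cebpd, a transcription factor of the acute-phase response, stood at 43.0 ± 31.3 CPM in knockout-labelled and 87.1 ± 36.2 CPM in wild-type libraries (n = 3 each, SD).

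Of 9 tested genes of the IL-17 axis, 4 were higher and 1 lower at an unadjusted p under 0.05 (median 1.27), and S100a8 and S100a9 among them also mark neutrophils. S100a9 stood at 15.4, 7.08 and 9.50 CPM in the knockout-labelled animals, against 2.63, 0.867 and 0.380 CPM in the wild-type animals (log2 fold change 3.04, edgeR adjusted p = 0.132). S100a8 stood at 9.84, 2.96 and 4.07 CPM in the knockout-labelled animals, against 0.413, 1.12 and 0.863 CPM in the wild-type animals. Cxcl5, a neutrophil chemoattractant, stood at 20.8, 4.72 and 7.05 CPM in the knockout-labelled animals, against 3.19, 2.68 and 2.45 CPM in the wild-type animals. All 3 genes were highest in knockout-labelled animal 1, the library with the erythroid sum of 1075 CPM, whose part in these values was not tested. Without that library the log2 fold changes were 2.68 for S100a9, 2.14 for S100a8 and 1.08 for Cxcl5.

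Of 10 tested IL-4 and IL-13 targets, 4 were higher and 0 lower at an unadjusted p under 0.05 (median 0.65). Arg1, encoding arginase 1, stood at 41.5, 31.8 and 43.8 CPM in the knockout-labelled animals, against 12.5, 6.53 and 5.28 CPM in the wild-type animals (log2 fold change 2.27, SE 0.31, edgeR adjusted p = 0.0502). It was called in 8 of 17 alternatives, among them DESeq2 and limma-voom, and the groups did not overlap. Ccl11, the eosinophil chemoattractant eotaxin, stood at 40.7, 14.0 and 17.0 CPM in the knockout-labelled animals, against 10.8, 12.8 and 11.7 CPM in the wild-type animals. Chi3l3, a chitinase-like protein of alternatively activated macrophages, stood at 4.40, 0.878 and 0.846 CPM in the knockout-labelled animals, against 0, 0.330 and 0 CPM in the wild-type animals. In counts, these were 105, 16 and 21 in knockout-labelled animals, against 0, 8 and 0 in wild-type animals. Chi3l3, among the 4 higher targets, reached 10 counts in knockout-labelled libraries alone, so a difference was built into its passing the filter of the test.

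The remaining rows below the measured level held at most 30 counts in any library. Il12a, Il17rb, Il27, Il31ra and Il5ra had counts in both groups, Il4i1 only in knockout-labelled animal 1, Il23r only in wild-type animals 1 and 2, and the row named Il8 only in wild-type animal 2. Il11ra2, Il17b, Il31 and Il9r had 0 counts in all 6 libraries. At this depth such rows could not be compared between the groups.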

How the data were processed

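Per the submitters' processing notes, the authors aligned reads with TopHat and Bowtie to mm10 and made the deposited whole-number counts with HTSeq; no source used here gives versions, annotation or strand setting. A deposited edgeR table by the authors gives log2 fold changes (wild type over knockout; the sign was turned here), p-values and FDR values, per the file headers. The 5 tally rows of the counting tool were left out; of each library total they held 14.4% to 16.8% as no feature, 0.417% to 0.784% as ambiguous and 22.9% to 25.1% (knockout-labelled) or 18.7% to 19.4% (wild type) as not uniquely aligned. Counts of the 23420 genes went into edgeR 4.0.16 under R 4.3.3 (gene filter filterByExpr with a minimum count of 10 and total of 15, TMM, glmQLFit and glmQLFTest, genotype as the only term, Benjamini-Hochberg over 15796 genes, adjusted p under 0.05). The SE is the absolute log2 fold change over the square root of F. CPM uses TMM-adjusted library sizes. The test was tried on simulated data. Exon lengths, overlaps and GC content come from GENCODE M21, and gene positions from RefSeq GRCm38.p6, both of the build mm10.

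Members, families and lists were chosen with earlier results of these data known. Named with values were called members, the 12 most abundant measured members, the 10 with the lowest p, and members fixed by role, and of each pathway list up to 3 genes with the lowest p. Rows named outside this rule (Il1f5, Il12b, Il12rb2, Il18rap, Il20ra, Il25, Il2ra, Il1rapl1, Il1rapl2, Lcn2 and rows below the measured level) were chosen after their values were seen. Alternatives were RLE and upper-quartile factors, other filters, DESeq2 1.42.0, limma-voom 3.58.1, the exact test of edgeR, a block for the animal number, sex, the cornea and conjunctiva marker mean, a GC correction (lowess span 0.3), and each library left out.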

Additional observations from a re-analysis of the deposited data

How the results depend on the processing

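The count of all genes called was 8. It was 15 with upper-quartile factors, 22 with no filter beyond 1 count, 16 with the filter of CPM of at least 1, 458 with DESeq2, 362 with the edgeR exact test, 13 with limma-voom, 1 with sex as a covariate, 24 with the cornea covariate, and 0 to 795 when a library was left out (795 when it was knockout-labelled animal 1, 9 and 1 when it was wild-type animal 1 or 2, and 0 for the remaining libraries). With the animal number as a replicate block it was 1, and 0 interleukin rows were called. The deviations of same-numbered libraries from their group means correlated at -0.15, -0.15 and -0.11. With 3 libraries per group such values cannot decide whether the numbers pair the samples. Same-numbered libraries were alike in sex. The count of interleukin rows called, 0, was 4 with DESeq2, 2 with the exact test and 0 to 5 with a library left out. At an unadjusted p under 0.05, 4 rows were higher and 1 lower with the cornea covariate; with a library left out these counts ran from 4 to 9 and from 2 to 5. The median log2 fold change of 0.28 was 0.38 with no filter beyond 1 count, 0.40 with DESeq2, and 0.20 to 0.45 with a library left out.

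The sign of the log2 fold change turned for 20 of the 48 tested rows, those named by the rule being given here, and for Csf1r; the cause was not tested. With the cornea covariate Il17ra was at 0.34, Il18r1 at -0.74, Il1b at -0.11, Il1r1 at -0.24, Il1rap at -0.20 and Csf1r at 0.033. With the GC correction Il13ra1 was at -0.021 and Il17rc at 0.084. Il2rg was at -0.0070 with the block and at -0.0076 with sex as a covariate. With a library left out, the lowest and highest values were -0.33 and 1.46 for Il11. They were -0.98 and 2.69 for Il13ra2, -0.12 and 0.62 for Il16, -0.35 and 0.13 for Il17ra, -0.15 and 2.28 for Il18r1, -0.15 and 1.59 for Il1b, and -0.026 and 0.29 for Il21r. For Il27ra they were -0.35 and 0.81, for Il2rg -0.36 and 0.34, for Il3ra -0.14 and 0.58, and for Il4ra -0.11 and 0.11. Of the 48 tested rows, 28 kept their sign in every alternative that tested them. Depth limits rows under 1 CPM, where 3 counts stand for 0.104 to 0.165 CPM.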
